A study of Mus musculus with 8 samples.

Results

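The levels of 29 genes that make, sense and move cholesterol were compared in sorted thymocytes of 2 inbred mouse strains. The genes were chosen by name: 18 enzymes of sterol synthesis, 6 genes of its control and 5 genes of cholesterol transport and storage, out of 53465 Ensembl genes listed in each deposited table. All 29 were found under their GENCODE M21 symbols, and all 29 had enough reads to enter the test. NOD (NOD/ShiLtJ), a strain that develops autoimmune diabetes spontaneously, was set against C57BL/6J, the strain of the mouse reference genome. The labels name no transgene, deletion or treatment in either strain, and give neither age nor sex. Thymi were dissociated, and live single cells positive for both CD4 and CD8a were sorted by flow cytometry, the double-positive stage, at which the T cell receptor is completed and tested. The series concerns how genetic variation linked to type 1 diabetes relates to chromatin folding in T cells, and the RNA libraries compare gene expression between the strains.

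Cells build cholesterol from acetyl-CoA through mevalonate, the isoprenoid farnesyl diphosphate, squalene and lanosterol. The transcription factor SREBP-2, encoded by Srebf2, switches these enzymes on together: when membrane sterol is low, SCAP escorts it from the endoplasmic reticulum to be cut and released, and when sterol is high the INSIG proteins hold it back. Liver X receptors, activated by oxysterols, drive the efflux pumps ABCA1 and ABCG1. Dividing lymphocytes need sterol for new membrane.

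There were 4 libraries per strain. The titles number them with B and T without saying what these letters stand for. Libraries sharing strain and B number were summed to 2 samples per strain, called sample 1 and sample 2 below. Whether these were separate mice is not stated, and the p-values cover only the spread among them, which may be technical. The libraries held 23532823 to 30370599 reads in genes for NOD and 8526640 to 15701948 for C57BL/6J. The 8 markers of the sorted stage were abundant, with a summed level of 12010 to 14440 CPM in the NOD libraries and 15400 to 18650 CPM in the C57BL/6J libraries. The coreceptor genes used for the sort overlapped between the strains, with Cd4 at 1293 ± 66.4 CPM (reads scaled to a common library size) in NOD and 1251 ± 159 CPM in C57BL/6J, and Cd8a at 1660 ± 30.04 CPM in NOD and 1563 ± 120.1 CPM in C57BL/6J (throughout, ± after a CPM value is the SD over the 2 samples of a strain). In edgeR 0 of the 8 markers passed the test, where 3.68% of all tested genes did. But 2 had an unadjusted p under 0.05 (13.1% of all tested genes), both with lower values in NOD (6.30%). These were Cd8b1, the other CD8 chain, at 1076 ± 100.9 CPM in NOD and 1729 ± 201.2 CPM in C57BL/6J (adjusted p = 0.0912), and Rag1, a recombinase gene, at 5902 ± 950.3 CPM in NOD and 8998 ± 795.7 CPM in C57BL/6J (adjusted p = 0.217). Rag2 had 286 ± 0.477 CPM in NOD and 360 ± 20.8 CPM in C57BL/6J. For Cd8b1, Rag1 and Rag2 all NOD libraries lay below all C57BL/6J libraries, as for 8.84% of all tested genes. The part of this difference in the sterol genes was not tested.

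The control and transport genes had higher median levels than the enzymes. On a per-length scale (CPM per kilobase of exon, averaged over the strains), the median level was 3.07 for the 18 enzymes, 14.9 for the 6 control genes and 9.15 for the 5 transport genes, beside 5.50 for the 11791 tested protein-coding genes. The highest levels per length were those of Srebf2 (26.4), Abcg1, an efflux pump for cholesterol (26.1), and Soat1, the enzyme that esterifies cholesterol for storage (24.7). Nr1h2, which encodes liver X receptor beta, stood at 23.1 and Srebf1, the SREBP gene better known for fatty acid synthesis, at 21.8. Among the enzymes the levels per length ran from 0.765 for Tm7sf2, a sterol reductase, to 8.59 for Hmgcs1, the synthase that precedes mevalonate. Ebp, the sterol isomerase (8.28), and Dhcr7, a dehydrocholesterol reductase (7.295), were close to Hmgcs1, whose own samples ran from 5.66 to 11.6.

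**Figure D1:**
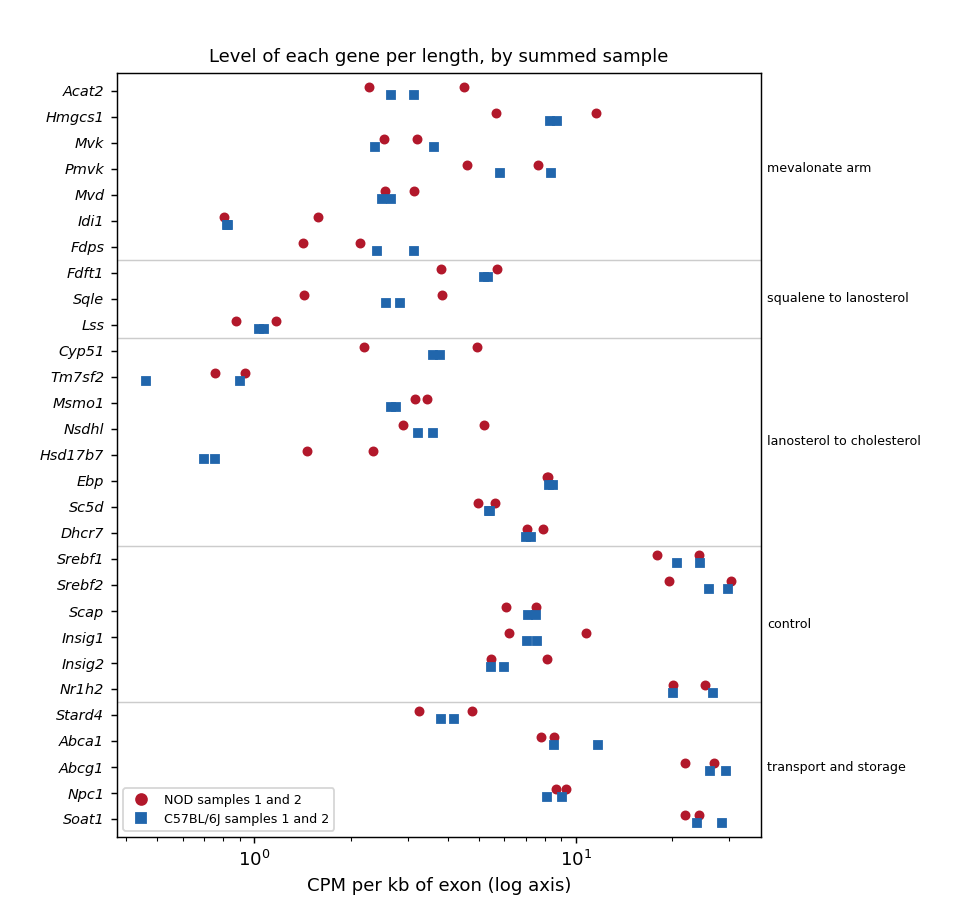
Level of each of the 29 genes on a per-length scale (horizontal log axis, CPM per kilobase of exon), with NOD samples as circles and C57BL/6J samples as squares, n = 2 summed samples per strain. Srebf2, Abcg1, Soat1, Nr1h2 and Srebf1 lie highest, and Hsd17b7 is the gene whose strains stand furthest apart.

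No gene of the set passed the test between the strains. With edgeR's quasi-likelihood test and Benjamini-Hochberg adjustment over all 17291 tested genes, 0 of the 29 had an adjusted p under 0.05, where 637 of all tested genes (3.68%) did, 1.91% higher and 1.78% lower in NOD. At an unadjusted p under 0.05, 1 member was higher and 0 lower in NOD, against 6.81% and 6.30% of all tested genes. That member was Hsd17b7, the 1 member that DESeq2 and limma each called. The median log2 fold change (NOD over C57BL/6J) was -0.04 over the members and 0.02 over all tested genes, with 13 members above 0 and 16 below, where 52.3% of all tested genes were above 0. The median absolute log2 fold change was 0.148 for the members and 0.268 for all tested genes. The estimated fold was over 1.5 in either direction for 2 members, Hsd17b7 and Fdps. The 95% interval of the fold lay within 2-fold either way for 23 members and within 1.5-fold for 10. For 3 members all libraries of a strain lay on the same side of all libraries of the other, against 17.0% of all tested genes. These were Hsd17b7 and Msmo1, higher in NOD as were 8.20% of all tested genes, and Fdps, lower in NOD as were 8.84%.

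**Figure D2:**
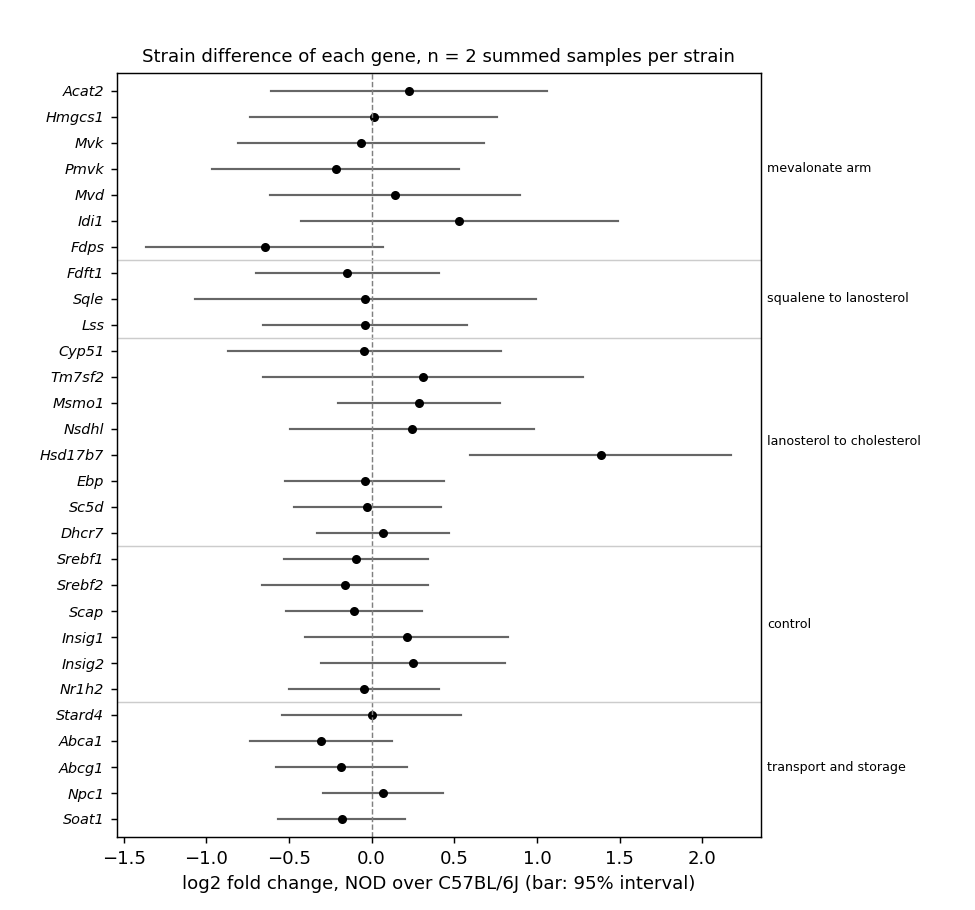
Log2 fold change of each gene, NOD over C57BL/6J (points), with its 95% interval (bars), from edgeR with n = 2 summed samples per strain. Of the 29 intervals, that of Hsd17b7 alone excludes 0; it is not adjusted for the number of genes.

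Hsd17b7 was the member nearest to a call. It encodes the keto-reductase that acts in the removal of methyl groups from lanosterol derivatives, and lies on the minus strand of chromosome 1 (GRCm38, 169949535 to 169969241). In NOD it had 7.65 and 7.17 CPM in the libraries of sample 1 and 13.0 and 10.7 CPM in those of sample 2. In C57BL/6J it had 4.08 and 3.66 CPM in the libraries of sample 1 and 3.53 and 3.65 CPM in those of sample 2. All 4 NOD libraries thus lay above all 4 C57BL/6J libraries. The sums behind this were 1031 reads in NOD and 175 in C57BL/6J. The log2 fold change was 1.39 ± 0.35 SE, a fold of 2.62 with a 95% interval of 1.51 to 4.52, and the adjusted p was 0.0709 in edgeR. Over the alternatives run the adjusted p ranged between 0.00511 and 0.328: it was 0.00531 with DESeq2, 0.0365 with the 8 libraries in limma, 0.00511 with no low-count filter and 0.00786 without NOD sample 1, but 0.147 with the replicate block. Leaving out NOD sample 2 gave 0.266, and leaving out C57BL/6J sample 1 or sample 2 gave 0.328 or 0.2735. The estimate stayed between 1.00 and 1.68 on the log2 scale in these fits.

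The other enzymes after lanosterol stood closer together between the strains, and none passed the test. Msmo1, the methylsterol monooxygenase, had 19.5 and 21.15 CPM in the NOD samples and 16.3 and 16.9 CPM in the C57BL/6J samples. Its libraries did not overlap either, but the difference was small (log2 fold change 0.29 ± 0.22, adjusted p = 0.706 in edgeR). Nsdhl, the dehydrogenase that acts between Msmo1 and Hsd17b7, had 8.30 and 14.8 CPM in NOD and 10.3 and 9.24 CPM in C57BL/6J (0.24 ± 0.33, adjusted p = 0.862 in edgeR). Ebp had 18.8 and 18.9 CPM in NOD and 19.7 and 19.1 CPM in C57BL/6J, with a 95% interval of 0.696 to 1.35 for the fold. Sc5d, the sterol desaturase, had 27.4 and 24.2 CPM in NOD and 26.3 and 26.1 CPM in C57BL/6J, and Dhcr7 had 40.9 and 46.0 CPM in NOD and 42.2 and 40.65 CPM in C57BL/6J. Ebp, Sc5d and Dhcr7 were the enzymes with the narrowest intervals, none reaching past 1.5-fold. Tm7sf2, the enzyme with the lowest level per length, had 4.13 and 3.33 CPM in NOD and 2.03 and 3.97 CPM in C57BL/6J, and it shares 532 exon bases with Vps51 on the same strand, so reads from those bases cannot be assigned to either.

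The promoter windows of 5 members are shown because Hsd17b7, Abca1 and Msmo1 had the smallest adjusted p of the members with a window, and because Hmgcs1 and Cyp51 differed most between the NOD samples among members with one, which was seen in the values before they were picked. Each window runs from 250 bases before to 50 bases after the annotated start (RefSeq, GRCm38.p6), is written 5′ to 3′ on the gene's strand, and shows in capitals the matches on either strand to 3 motifs. These were the sterol regulatory element TCACNCCAC, bound by SREBPs, the NF-Y box CCAAT, whose factor works beside SREBPs, and the E-box CACGTG, to which SREBPs can also bind. An NF-Y box on the opposite strand reads as ATTGG here. The windows lie at chr1:169969156-169969455 on the minus strand (Hsd17b7), chr4:53159846-53160145 on the minus strand (Abca1), chr8:64733529-64733828 on the minus strand (Msmo1), chr13:119690101-119690400 on the plus strand (Hmgcs1) and chr5:4104648-4104947 on the minus strand (Cyp51).
Hsd17b7: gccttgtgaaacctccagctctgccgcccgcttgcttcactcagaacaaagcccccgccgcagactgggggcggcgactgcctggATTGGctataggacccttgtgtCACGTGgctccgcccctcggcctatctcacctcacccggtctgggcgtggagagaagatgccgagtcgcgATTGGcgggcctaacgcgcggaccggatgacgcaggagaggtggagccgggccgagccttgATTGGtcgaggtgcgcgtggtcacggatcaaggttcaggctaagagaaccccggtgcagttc
Abca1: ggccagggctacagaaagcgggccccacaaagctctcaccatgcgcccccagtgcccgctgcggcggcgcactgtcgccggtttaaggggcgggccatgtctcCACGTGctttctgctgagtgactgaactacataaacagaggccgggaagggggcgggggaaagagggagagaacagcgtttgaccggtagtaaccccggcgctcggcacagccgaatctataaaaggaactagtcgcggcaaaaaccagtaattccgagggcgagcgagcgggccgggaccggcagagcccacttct
Msmo1: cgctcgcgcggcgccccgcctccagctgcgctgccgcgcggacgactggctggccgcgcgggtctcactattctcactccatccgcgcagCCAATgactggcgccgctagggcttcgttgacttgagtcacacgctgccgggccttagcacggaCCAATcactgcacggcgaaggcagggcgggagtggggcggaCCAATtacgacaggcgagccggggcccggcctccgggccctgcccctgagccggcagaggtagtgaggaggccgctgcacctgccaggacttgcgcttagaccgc
Hmgcs1: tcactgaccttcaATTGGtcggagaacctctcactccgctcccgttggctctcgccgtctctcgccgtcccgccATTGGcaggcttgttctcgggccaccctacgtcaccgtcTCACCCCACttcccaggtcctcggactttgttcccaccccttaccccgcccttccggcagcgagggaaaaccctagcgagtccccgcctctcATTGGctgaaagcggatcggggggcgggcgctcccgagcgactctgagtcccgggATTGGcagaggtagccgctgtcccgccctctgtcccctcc
Cyp51: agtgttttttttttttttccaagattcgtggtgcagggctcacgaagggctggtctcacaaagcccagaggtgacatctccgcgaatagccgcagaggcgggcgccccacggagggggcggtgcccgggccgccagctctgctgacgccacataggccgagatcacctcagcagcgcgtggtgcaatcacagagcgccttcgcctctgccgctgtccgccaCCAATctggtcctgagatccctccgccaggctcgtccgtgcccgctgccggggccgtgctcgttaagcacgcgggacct

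Of the members, 23 had 1 or more windows in the RefSeq table, 31 windows in all. The NF-Y box was found in 20 of these 31 windows (64.5%), against 37.4% of all 32851 windows. By gene, it was found in 19 of the 23, against 41.1% of all 27025 genes. The E-box was found in 7 of the 31 (22.6%), against 7.15% of all windows, and the sterol regulatory element in 1 of the 31 (3.23%), that of Hmgcs1, against 1.24%. Windows of 1 gene can overlap, so these shares are not independent counts. Hsd17b7 and Msmo1 each had 3 NF-Y boxes, Hmgcs1 had 4 and Cyp51 had 1, while the Abca1 window held none. A match is a description of the letters only, and the NOD sequence was not analysed here. Each motif was searched as the 1 string given, so a window without a match is not shown to lack a binding site.

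No gene of the first steps, from acetyl-CoA to farnesyl diphosphate, passed the test between the strains. Hmgcs1 had 26.0 and 53.2 CPM in NOD samples 1 and 2, against 38.25 and 40.3 CPM in C57BL/6J samples 1 and 2. The C57BL/6J samples thus lay between the NOD samples, and the log2 fold change was 0.01 ± 0.32. Acat2, the cytosolic thiolase, had 5.81 and 11.4 CPM in NOD and 6.76 and 7.98 CPM in C57BL/6J, again inside the NOD range. Its near copy Acat3 had 29 reads in NOD and 28 in C57BL/6J. Mvk, mevalonate kinase, had 6.79 and 8.57 CPM in NOD and 9.72 and 6.36 CPM in C57BL/6J. Pmvk, the kinase after it, had 7.86 and 13.1 CPM in NOD and 14.4 and 9.97 CPM in C57BL/6J. In both kinases the samples of the strains overlapped. Mvd, the decarboxylase, had 4.74 and 5.84 CPM in NOD and 4.64 and 4.945 CPM in C57BL/6J. Idi1, the isomerase, had 2.83 and 5.52 CPM in NOD and 2.915 and 2.88 CPM in C57BL/6J (log2 fold change 0.53, 95% interval -0.43 to 1.49), so that 1 NOD sample carried the difference. Fdps, farnesyl diphosphate synthase, stands where sterols part from the other isoprenoids, and had 5.95 and 8.96 CPM in NOD and 13.25 and 10.1 CPM in C57BL/6J. It shares 1124 exon bases on the same strand with the predicted gene Gm43738, which had 1 read in all libraries. The Fdps libraries did not overlap, but the log2 fold change of -0.65 ± 0.32 did not pass the test (adjusted p = 0.4555 in edgeR; 95% interval -1.36 to 0.07).

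In the steps from squalene to lanosterol and its first demethylation, no gene passed the test either. Fdft1, squalene synthase, had 16.1 and 24.1 CPM in NOD and 21.95 and 22.6 CPM in C57BL/6J. Sqle, squalene epoxidase and a slow step of the pathway, had 7.92 and 21.3 CPM in NOD and 14.3 and 15.8 CPM in C57BL/6J. Lss, lanosterol synthase, had 9.475 and 12.6 CPM in NOD and 11.6 and 11.15 CPM in C57BL/6J. Cyp51, the lanosterol demethylase, had 9.71 and 21.8 CPM in NOD and 15.9 and 16.7 CPM in C57BL/6J. In all 4 genes NOD sample 1 was the lowest and NOD sample 2 the highest of the 4 samples, and the log2 fold changes ran from -0.15 to -0.04. For Sqle the 95% interval of the fold ran from 0.476 to 1.99, an interval too wide to tell no difference from one of nearly 2-fold. Fdft1 shares 774 exon bases with Ctsb and Cyp51 166 with Akap9, both on the opposite strand, and the strand setting of the counting was not given in the sources used here.

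Most enzymes differed more between the NOD samples than between the strains, 13 of 18 by the size of the log2 difference. The 5 exceptions were Hsd17b7, Fdps, Msmo1, Tm7sf2 and Ebp. This count was not made for all tested genes, and single samples vary more than the means of 2 samples that the strain difference compares. The count alone therefore does not set the enzymes apart. The median absolute log2 fold change between the strains was 0.145 for the 18 enzymes and 0.268 for all tested genes. Of the 18 enzymes, 16 were higher in NOD sample 2 than in NOD sample 1 (88.9%), where 47.0% of all tested genes were, and both libraries of sample 2 lay above both of sample 1 for 14 (27.5% of all tested genes). The reverse held for 1 enzyme, Sc5d (27.2% of all tested genes). Sqle was 2.59-fold higher in NOD sample 2, Cyp51 2.19-fold, Hmgcs1 2.03-fold, Acat2 1.89-fold and Idi1 1.81-fold. Insig1, the SREBP anchor that is itself an SREBP target, was 1.71-fold higher and Srebf2 1.56-fold. Insig2, the other anchor, stood at 0.675 of its level in sample 1, the largest difference in the opposite direction. The median absolute difference between the NOD samples was 0.558 on the log2 scale for the enzymes and 0.253 for all tested genes. In C57BL/6J it was 0.079 for the enzymes and 0.257 for all tested genes, and 8 of 18 enzymes were higher in sample 2. Both libraries of C57BL/6J sample 2 lay above both of sample 1 for 2 enzymes (26.0% of all tested genes), and the reverse held for 4 (29.7%). With 1 sum of libraries per sample there is no test of this difference.

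**Figure D3:**
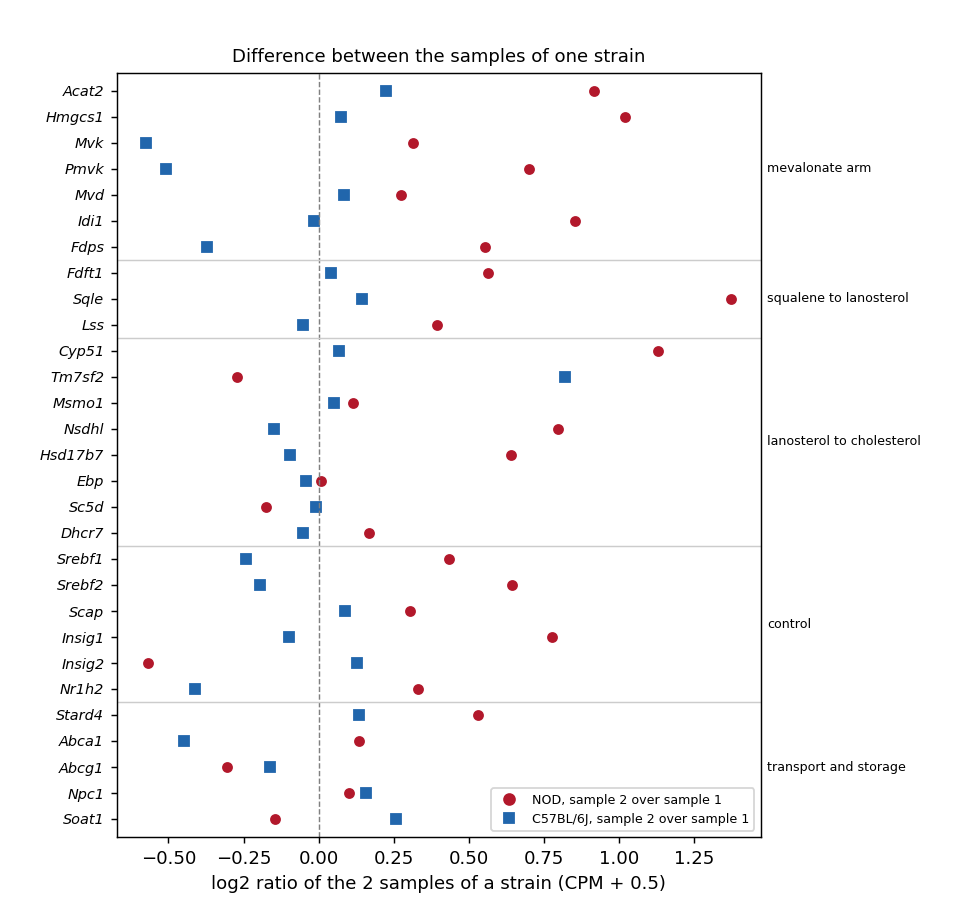
Log2 ratio of sample 2 over sample 1 (horizontal axis, on CPM + 0.5) for each gene, in NOD (circles) and in C57BL/6J (squares). Of the 29 genes, 24 lie right of 0 in NOD and 13 in C57BL/6J.

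The summed level of the 18 enzymes was 220 to 327 CPM over the NOD libraries and 252 to 299 CPM over the C57BL/6J libraries. By sample, it was 236 and 220 CPM in the libraries of NOD sample 1 and 327 and 326 CPM in those of NOD sample 2. Both C57BL/6J samples lay between, with 299 and 252 CPM in sample 1 and 271 and 265 CPM in sample 2. Lists of fatty acid synthesis genes and of proliferation genes had the same order between the NOD samples. The 19 fatty acid genes summed to 870.5 and 762 CPM in the libraries of NOD sample 1, 1089 and 1066 CPM in those of NOD sample 2, and 1044 to 1236 CPM in the C57BL/6J libraries. Of 16 proliferation genes, all 16 were higher in NOD sample 2 than in NOD sample 1, from 1.91-fold for Tyms to 6.58-fold for Plk1, with 6.34-fold for Mki67 and 5.37-fold for Top2a, the most abundant, and 0 of the 16 passed the strain test in edgeR, nor did any at an unadjusted p under 0.05. Their summed level was 1403 and 1009 CPM in the libraries of NOD sample 1, 5064 and 5311 CPM in those of NOD sample 2, and 3727 to 5023 CPM in the C57BL/6J libraries. No gene of these lists was at 0 in any library. The part of either list in the enzyme levels was not tested, and in bulk samples a larger share of cycling cells and more RNA per cell cannot be told apart.

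**Figure D4:**
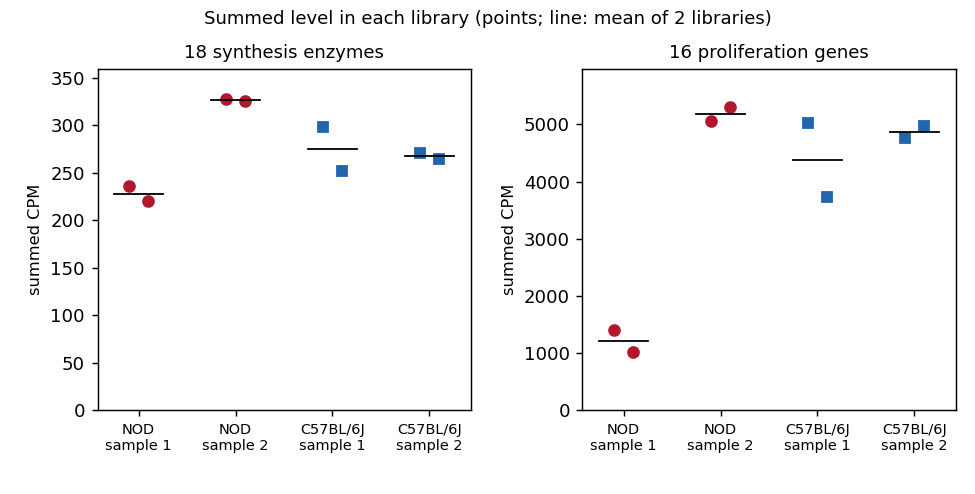
Summed CPM of the 18 synthesis enzymes (left) and of 16 proliferation genes (right) in each library (points), by strain and sample, with the mean of the 2 libraries as a line. In both panels NOD sample 1 is lowest and NOD sample 2 highest.

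The median strain difference of the set took opposite signs with the NOD sample left out. Without NOD sample 1, the median log2 fold change of the members was 0.13 and 22 of 29 were above 0. Without NOD sample 2, it was -0.245 and 6 of 29 were above 0. Over all tested genes these fits gave medians of 0.002 and 0.003. Without NOD sample 1, 1 member was called (5.06% of all tested genes), and without NOD sample 2, 0 members were called (8.08% of all tested genes).

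The genes that control the pathway showed no called difference. Srebf2 had 140 and 219 CPM in the NOD samples and 214 and 187 CPM in the C57BL/6J samples (log2 fold change -0.16 ± 0.22, adjusted p = 0.865 in edgeR). Srebf1 had 101 and 137 CPM in NOD and 138 and 116 CPM in C57BL/6J, and Scap, the escort and sterol sensor, had 45.2 and 56.0 CPM in NOD and 52.8 and 56.2 CPM in C57BL/6J. For Srebf1 and Scap the 95% interval of the fold lay between 0.692 and 1.27. Insig1 had 19.2 and 33.3 CPM in NOD and 23.45 and 21.9 CPM in C57BL/6J, and Insig2 had 28.2 and 18.9 CPM in NOD and 18.9 and 20.7 CPM in C57BL/6J. The INSIG genes thus stood in opposite order in the NOD samples. Nr1h2 had 67.4 and 84.9 CPM in NOD and 89.75 and 67.3 CPM in C57BL/6J, overlapping between the strains.

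None of the 5 transport and storage genes passed the test. Soat1 had 237 and 215 CPM in NOD and 234 and 279 CPM in C57BL/6J (log2 fold change -0.18 ± 0.17, adjusted p = 0.78 in edgeR). Abcg1 had 197 and 159 CPM in NOD and 214 and 191 CPM in C57BL/6J, and Abca1, the pump that loads cholesterol onto apolipoprotein, had 80.9 and 88.7 CPM in NOD and 121 and 88.6 CPM in C57BL/6J. Neither pump passed the test (adjusted p = 0.787 for Abcg1 and 0.610 for Abca1 in edgeR). Npc1, which exports cholesterol from lysosomes, had 98.6 and 106 CPM in NOD and 92.2 and 103 CPM in C57BL/6J, with a 95% interval of 0.815 to 1.35 for the fold, and it shares 511 exon bases with Rmc1 on the opposite strand. Stard4, a soluble sterol carrier and SREBP target, had 18.2 and 26.5 CPM in NOD and 21.3 and 23.4 CPM in C57BL/6J, a log2 fold change of 0.00 ± 0.24. Of these 5 genes, Stard4 alone had NOD sample 1 lowest and NOD sample 2 highest. That was the order of the summed level of the enzymes, though not of every enzyme. Macrophages and dendritic cells express the efflux genes strongly. Of 12 markers of those cells, 10 were tested and 1 was called higher in NOD, where 1.91% of all tested genes were. This was Csf1r, at 3.56 ± 0.366 CPM in NOD and 0.6425 ± 0.278 CPM in C57BL/6J (adjusted p = 0.0233 in edgeR). It had 369 reads in NOD and 30 in C57BL/6J. Of the 10 tested markers, 8 had log2 fold changes above 0 and 2 below, where 52.3% of all tested genes were above 0. The summed level of the 12 markers was 15.5 to 30.6 CPM in NOD libraries and 12.4 to 17.1 CPM in C57BL/6J libraries. Lyz2 and Cd68, the most abundant of them, had 9.55 ± 3.43 and 2.76 ± 0.282 CPM in NOD and 3.85 ± 0.862 and 2.26 ± 0.192 CPM in C57BL/6J, and did not pass the test (adjusted p = 0.109 and 0.8625 in edgeR). Cd14 had no reads in any sample, and the part of such cells in the transport genes was not tested.

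Of 82 tested genes in 5 neighbouring lists, 2 passed the test (2.44%, against 3.68% of all tested genes). Of 23 tested genes of other sterol steps and carriers, 1 was called higher and 0 were called lower in NOD, where 1.91% and 1.78% of all tested genes were. This was Gramd1b, which moves cholesterol from the plasma membrane to the endoplasmic reticulum. It had 56.7 and 53.3 CPM in the NOD samples and 21.9 and 29.02 CPM in the C57BL/6J samples. All its NOD libraries lay above all its C57BL/6J libraries, as for 8.20% of all tested genes. Gramd1b was 1 of 5 genes of that list with this trait. The log2 fold change was 1.11 ± 0.20 (adjusted p = 0.0169 in edgeR), and the adjusted p was 0.185 without C57BL/6J sample 1. Lbr, a sterol reductase and nuclear envelope protein, and Osbpl8, a lipid carrier, were the most abundant of that list, at 705 ± 39.7 and 514 ± 36.5 CPM in NOD and 569 ± 6.75 and 478 ± 16.7 CPM in C57BL/6J. Of 19 genes of fatty acid synthesis, many of them SREBP targets, 7 had log2 fold changes above 0 and 12 below. Among them 0 were called higher and 1 was called lower in NOD, against the same shares of all tested genes. This was Acss2, which makes acetyl-CoA from acetate, at 22.1 and 22.7 CPM in NOD and 47.7 and 39.7 CPM in C57BL/6J. It fell by 0.96 ± 0.19 on the log2 scale (adjusted p = 0.0269 in edgeR), a call that was lost with the replicate block (0.0631) and when C57BL/6J sample 1 (0.281) or sample 2 (0.0721) was left out. Scd2, the main desaturase there, had 342 ± 40.9 CPM in NOD and 404 ± 29.96 CPM in C57BL/6J, and Acly, which makes cytosolic acetyl-CoA from citrate, had 200.5 ± 39.6 CPM in NOD and 254 ± 13.1 CPM in C57BL/6J, neither passing the test.

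**Figure D5:**
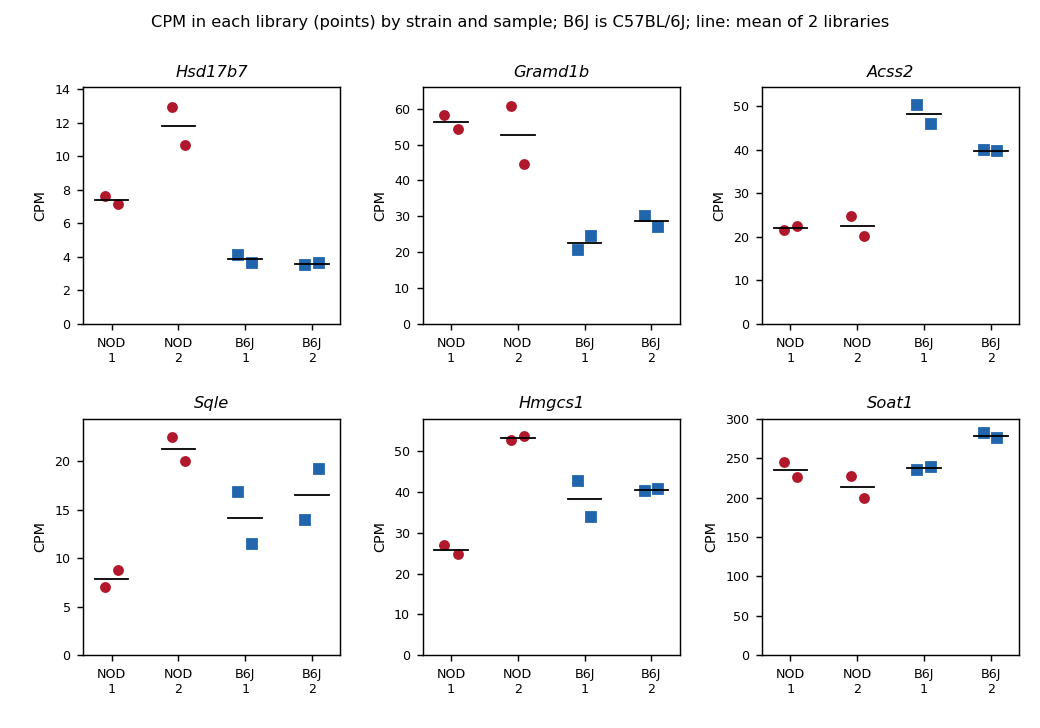
CPM in each library (points) for 6 genes, by strain and sample, with the mean of the 2 libraries as a line; vertical axes start at 0. Hsd17b7 and Gramd1b lie higher and Acss2 lower in all 4 NOD libraries, while Sqle and Hmgcs1 are lowest in NOD sample 1 and highest in NOD sample 2, and Soat1 overlaps between the strains.

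The other 3 lists held no called gene in edgeR. Their counts at an unadjusted p under 0.05 stand beside 13.1% of all tested genes. Of 17 genes of the isoprenoid branches, which use mevalonate products for protein prenylation, dolichol and ubiquinone, 1 had an unadjusted p under 0.05. Zmpste24, a prenyl-protein protease, had 72.3 ± 2.74 CPM in NOD and 69.7 ± 5.43 CPM in C57BL/6J, and Ggps1, geranylgeranyl diphosphate synthase, had 63.1 ± 10.5 CPM in NOD and 54.6 ± 1.61 CPM in C57BL/6J. Of 13 genes that process or degrade SREBP and its partners, 0 had an unadjusted p under 0.05. Mbtps1, the protease that first cuts SREBPs, had 351 ± 24.8 CPM in NOD and 339 ± 6.39 CPM in C57BL/6J, and Rnf145, a sterol-responsive ubiquitin ligase, had 189 ± 20.1 CPM in NOD and 167 ± 17.9 CPM in C57BL/6J. Of 10 tested partners and targets of liver X receptors, 1 had an unadjusted p under 0.05, Rxra, a partner receptor, at 1.79 ± 0.541 CPM in NOD and 4.69 ± 0.614 CPM in C57BL/6J (adjusted p = 0.1198 in edgeR). Arl4c had 162 ± 3.85 CPM in NOD and 151 ± 25.7 CPM in C57BL/6J, and Mylip, a ligase that lowers lipoprotein uptake, had 69.2 ± 12.4 CPM in NOD and 76.9 ± 3.54 CPM in C57BL/6J.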

How the data were processed

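RNA of sorted CD4+ CD8+ thymocytes was sequenced as stranded total RNA, paired-end, in 8 libraries. The authors deposited raw read counts per Ensembl gene, not normalized. Alignment to GRCm38 with STAR 2.5.0a and counting with HTSeq 0.6.1 are given per the submitters' processing notes; the annotation, the strand setting and any removal of duplicates are not given in the sources used here. Rows naming no gene (40.0% to 59.1% of listed reads outside genes, 0.694% to 2.38% ambiguous) were left out. Symbols came from GENCODE M21, matching 53360 of 53465 identifiers.

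Libraries with the same strain and B number were summed, as their T numbers may mark repeats; their counts differed beyond sampling noise (chi-square per degree of freedom 2.96 to 61.2). Genes passing filterByExpr were scaled by TMM and tested with edgeR 4.0.16 (quasi-likelihood, robust, strain only, two-sided, R 4.3.3), called at an adjusted p under 0.05. SE is |log2 fold change|/√F. CPM use TMM-scaled totals; per-length levels divide by merged exon length. Precision follows depth: the least deep library held 8526640 reads in genes. Alternatives used DESeq2 1.42.0, limma 3.58.1, other scaling, no filter, a replicate block and left-out samples. Members and lists were chosen with earlier results of these data known. All members are named; of the other lists described, called genes and the 2 most abundant. Cd4, Cd8b1, Rag2, Rxra, Tyms, Plk1 and Cd14 were named outside this rule, after their values were seen. Of 6 further lists of other cell types (21 tested genes), 0 genes were called in edgeR and 5 had an unadjusted p under 0.05, 3 higher and 2 lower in NOD. Some genes are not reported here.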

Additional observations from a re-analysis of the deposited data

Results flagged for a closer look

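Of 58 sets of 4 libraries (29 genes in each strain), 1 held a library far from the rest, where chance alone gives about 5% of sets. Stard4, a sterol carrier, had 18.9 CPM in 1 C57BL/6J library of sample 1, against 23.2 to 23.7 CPM in the other 3 C57BL/6J libraries, a gap of 0.89 of the range of the strain.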

How the results depend on the processing

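The count of members called was 0 in edgeR with DESeq2 size factors and with the replicate block. It was 1 (1 higher, 0 lower) with no low-count filter, with DESeq2, with the 8 libraries in limma and, chosen after seeing the data, with B numbers crossed between the strains, and 0 to 1 with a sample left out. Outside the crossed pairing that member was Hsd17b7. All genes called numbered 651 with DESeq2 size factors, 1188 with no filter (median log2 fold change of all genes 0.12), 937 with DESeq2, 513 with the replicate block, 815 in limma and 256 to 1389 with a sample left out. The crossed pairing called 768 genes. Same-numbered samples deviated with r = -0.161, and 2 pairs cannot show that the numbers pair samples. Members with separate libraries numbered 3 with DESeq2 size factors (16.9% of all tested genes). With a sample left out they numbered 4 to 14: 14 and 14 without NOD sample 1 and sample 2 (29.3% and 41.2% of all tested genes), and 4 and 6 without C57BL/6J sample 1 and sample 2 (32.9% and 33.5%); with no filter and in limma that count has no value of its own. The log2 fold change of Hmgcs1 turned to -0.076 with the replicate block and to -0.076 in limma, and that of Stard4 to -0.002 with DESeq2 size factors, -0.002 with DESeq2, -0.023 with the replicate block and -0.032 in limma.

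With a sample left out, 22 members had log2 fold changes on both sides of 0. They ranged as follows: Acat2 -0.350 to 0.630, Hmgcs1 -0.601 to 0.438, Mvk -0.345 to 0.268, Pmvk -0.639 to 0.104, Mvd -0.023 to 0.285, Idi1 -0.040 to 0.930, Fdft1 -0.472 to 0.112, Sqle -0.930 to 0.504, Lss -0.268 to 0.151, Cyp51 -0.751 to 0.424 and Tm7sf2 -0.096 to 0.865. The others ranged as follows: Nsdhl -0.241 to 0.60, Sc5d -0.116 to 0.055, Dhcr7 -0.025 to 0.152, Srebf1 -0.334 to 0.107, Srebf2 -0.524 to 0.127, Scap -0.276 to 0.039, Insig1 -0.245 to 0.554, Insig2 -0.068 to 0.505, Nr1h2 -0.244 to 0.174, Stard4 -0.304 to 0.246 and Npc1 -0.012 to 0.142. The causes were not tested. The other members, Fdps, Msmo1, Hsd17b7, Ebp, Abca1, Abcg1 and Soat1, kept their direction under the 9 alternatives examined per gene, which leave out the crossed pairing. With 2 samples per strain, a gene without a call is not shown to have equal levels in both strains. The printed intervals give the precision of the estimates they belong to.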

Other observations

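The genes beside Hsd17b7 on chromosome 1 were compared as well. Uap1, 173 kb away, had a mean of 25.03 CPM in NOD and 25.6 CPM in C57BL/6J (log2 fold change -0.04 ± 0.21 SE), and Uhmk1, 224 kb away, had 124.5 CPM in NOD and 100 CPM in C57BL/6J (0.32 ± 0.17). On the other side Nuf2, 418 kb away, had 45.6 CPM in NOD and 53.6 CPM in C57BL/6J (-0.23 ± 0.51). None passed the test, with adjusted p of 0.9705, 0.542 and 0.9215 in edgeR.

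Gramd1b has relatives with the same sterol-carrying role, named here after their values were seen. Gramd1a had 175.9 CPM in NOD and 150.5 CPM in C57BL/6J, and Gramd1c had 7.64 CPM in NOD and 4.38 CPM in C57BL/6J, with adjusted p of 0.731 and 0.311 in edgeR. Both estimates were above 0, at 0.23 and 0.80 on the log2 scale. Nr1h3, which encodes liver X receptor alpha, had 1.24 CPM in NOD and 1.245 CPM in C57BL/6J, far below Nr1h2.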
